A study of Mus musculus with 6 samples.

Results

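The transcripts of the 10 enzymes that carry the methionine cycle and its exit into cysteine, namely Mtr, Mtrr, Bhmt, Ahcy, Mat1a, Mat2a, Mat2b, Gnmt, Cbs and Cth, were followed in the cerebellum of C57BL/6J pups at postnatal day 1. Every non-control probe whose gene name in the scanner files equals 1 of these symbols was taken, which gave 10 of 10 genes and 18 of the 55681 probes on the array. Dams received the amino-acid based AIN-93G diet holding 2 mg/kg of folic acid (FA), or 20 mg/kg in the other group, from 1 week before mating through pregnancy, and no other agent or allele set the groups apart. There was 1 array for each sex at 2 mg and 2 arrays for each sex at 20 mg, 6 in all, each holding RNA pooled from 3 pups. The pups of a pool came from different dams, so the pool is the replicate, and its spread is that between pools. At 20 mg the second set of pools came from other pups of another batch, and the labels do not say which of the numbered arrays holds it. A tissue field of the labels names whole brain, against cerebellum in the titles. Because whole tissue was pooled, fewer cells of a type and less RNA per cell cannot be told apart.

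In the methionine cycle, homocysteine takes up a methyl group to become methionine, which is turned into S-adenosylmethionine, the methyl donor for DNA, histones, lipids and small molecules. Giving up the methyl group leaves S-adenosylhomocysteine, which is split back into homocysteine, and homocysteine can instead leave the cycle through transsulfuration to cysteine. The methyl group that remakes methionine comes from folate in most tissues and from betaine mainly in liver and kidney.

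The libraries differed in brightness before any comparison. The array labelled female 20 mg replicate 2 had 23.3% of probes well above background, a flag of the scanner software for signals clearly over the local background, against 51.06% to 71.93% on the other 5 arrays. Ranked against the remaining arrays it had a mean Spearman rho of 0.658, while each of the others had 0.861 to 0.889. Slide 1 held both 2 mg arrays and female 20 mg replicate 1, slide 2 held female 20 mg replicate 2 and male 20 mg replicate 1, and slide 3 held male 20 mg replicate 2. In males, slide and dose therefore cannot be told apart, and in females they can be separated only on slide 1. Of the cerebellar markers listed for a check, 9 of 9 were well above background on the 5 brighter arrays, among them the granule cell factor genes Zic1 and Barhl1, and of the forebrain markers 3 of 5 were. The summed normalized signal of the 6 choroid plexus markers was 2955 to 21100 at 2 mg and 29650 to 77090 at 20 mg, with none at background on every array, and its part in the enzyme values was not tested. The corresponding ranges at 2 mg and 20 mg were 57010 to 63310 and 38220 to 64780 for the cerebellar list, 1599 to 5728 and 1705 to 14000 for the forebrain list, 118100 to 133000 and 70490 to 139000 for astrocytes and Bergmann glia, 18180 to 20040 and 9111 to 19380 for the meninges, and 77900 to 88470 and 29190 to 181200 for red blood cells. For these lists as well, their part in the enzyme values was not tested. Such a sum of linear values mainly follows the brightest genes of its list. Among the choroid plexus markers Ttr was the highest of the 6 on every array. Over the 5 brighter arrays 4 of the 6 had every 20 mg array above both 2 mg arrays, against 9.41% of probes well above background on all 5. Aqp1 was lower at 20 mg in males (-0.89) and higher in females (2.52), and Kl overlapped between doses.

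Of the 18 enzyme probes, 6 were well above background on all 6 arrays, 6 on 5 arrays, 4 on 2 to 4 arrays and 2 on none. The array labelled female 20 mg replicate 2 detected 6 of the 18, and the other arrays detected 14 to 16. On that array the dimmest probe well above background stood at 8.82 on the normalized log2 scale, so an enzyme value below this is a dim one there and its order against other dim values is not measured. Where a gene has several probes, they are numbered here from the brightest, probe 1, by the mean normalized log2 value over the 6 arrays.

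**Figure D1:**
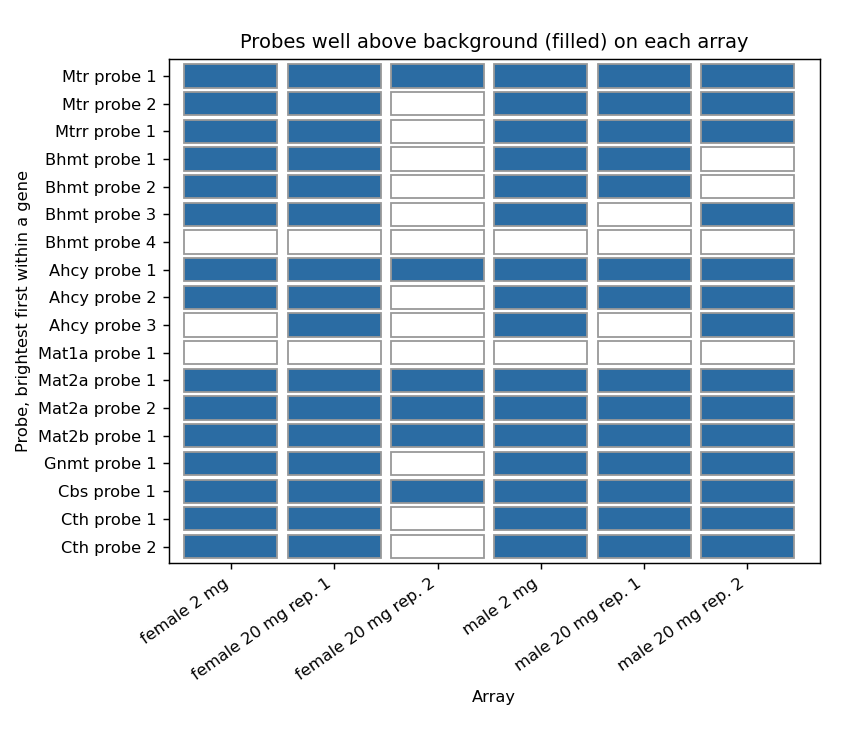
Detection of the 18 enzyme probes (rows, brightest probe of a gene first) on the 6 arrays (columns), with filled cells for probes well above background. The column of female 20 mg replicate 2 has 6 filled cells, and the rows of Mat1a and of Bhmt probe 4 have none.

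The oligonucleotides below are the Gnmt probe, the brightest Cth probe, and some probes of Bhmt, Ahcy and Mat2a. The latter differed from probe 1 of their gene in detection or dose difference. The probes of Mtr and of Cth also differed in dose difference, and the Mtr probes and Cth probe 2 are not printed. They are printed as in the scanner files, 5′ to 3′ and all in lower case because no stretch is singled out. All lie on the minus strand of mm9.

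Bhmt probe 4, chr13:94386836-94386840 in the files, a span shorter than the probe: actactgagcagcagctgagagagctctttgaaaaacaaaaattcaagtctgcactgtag

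Ahcy probe 2, chr2:154891321-154891380: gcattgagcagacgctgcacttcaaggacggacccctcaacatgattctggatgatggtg

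Ahcy probe 3, chr2:154894644-154894703: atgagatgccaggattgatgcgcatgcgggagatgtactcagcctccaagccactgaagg

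Mat2a probe 2, chr6:72385926-72385985: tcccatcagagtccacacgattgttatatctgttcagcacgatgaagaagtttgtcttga

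Gnmt probe 1, chr17:46862894-46863042, a span longer than the probe: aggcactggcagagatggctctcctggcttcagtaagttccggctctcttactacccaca

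Cth probe 1, chr3:157560183-157560242: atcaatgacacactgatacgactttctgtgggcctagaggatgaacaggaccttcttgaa

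All 18 probes are 60 bases long. Mtr probe 1 (chr13:12278823-12278882) and Mtrr probe 1 (chr13:68699721-68699780) are the AT-richest among the brightest probes, with 35% and 36.7% G and C, and Gnmt probe 1 has the most, 55%.

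With a replicate error that comes from the duplicate 20 mg pools, no enzyme passed the test between the 2 mg and 20 mg maternal FA groups. The test was limma's moderated linear model on quantile normalized log2 values, with calls at an adjusted p under 0.05. It called 0 of the 16 enzyme probes it covered in males, in females, over both sexes and for the difference between the sexes, and across all 37211 probes it called 0% in each of these 4 contrasts. At an unadjusted p under 0.05 it had 74 probes in males, 161 in females, 145 over both sexes and 51 for the interaction, with 0 enzyme probes among them. The smallest unadjusted p of an enzyme probe was 0.554 in males, 0.425 in females, 0.367 over both sexes and 0.639 for the interaction. The lone 2 mg array of a sex is assumed to vary like the 20 mg arrays, with 2 residual degrees of freedom, and the standard errors of the dose difference for single genes were between 0.904 (Mat2a) and 2.18 (Cth) on the log2 scale. A difference that misses the threshold under such errors is not shown to be absent. The model takes any batch between the 20 mg pools as error. Replicate 2 minus replicate 1 at 20 mg had the same sign in both sexes for 5 of the 9 tested genes, at 1.65 in females and 2.28 in males for Mtr, -3.26 and -1.63 for Mtrr, -1.39 and -1.45 for Mat2b, -1.08 and -1.86 for Cth and 1.82 and 0.0026 for Cbs on the log2 scale, with Mtrr and Cth not well above background on female 20 mg replicate 2. The signs were opposite for Ahcy (2.32 in females and -0.83 in males), Mat2a (0.51 and -0.42), Gnmt (-0.65 and 0.24) and Bhmt (0.08 and -1.38). Gnmt and Bhmt were also not well above background on female 20 mg replicate 2. The share of all probes with the same sign was not taken, so this count has no background. A fit added after seeing the data took the number of the 20 mg array as a batch term shared by the sexes. It has 1 residual degree of freedom, and limma called 0 enzyme probes in each contrast, with a smallest adjusted p of 1. Over all probes this fit called 1 in males, 10 in females, 13 over both sexes and 0 for the interaction.

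By the study's rule of 2.5-fold after a variation filter, which has no replicate error, 0 enzyme probes were up-regulated and 0 were down-regulated in males, where 1.42% of all probes were higher and 2.17% lower at 20 mg. In females 2 enzyme probes, Mtrr probe 1 and Cth probe 2, were lower and 0 were higher at 20 mg, where 10.3% of all probes were lower and 8.65% higher. Both rest on female 20 mg replicate 2, where both probes lay at the floor, and neither passed without it. Without that array 1 enzyme probe passed in females, Bhmt probe 2 with 20 mg higher by 1.63 on the log2 scale, and 1 passed in males, Cth probe 2 with -1.40. Only 3 of the 18 enzyme probes passed the variation filter, Mtrr probe 1, Bhmt probe 2 and Cth probe 2.

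The levels overlapped between doses. Over all 6 arrays, 0 of the 10 genes had every 20 mg array above or below both 2 mg arrays, against 3.74% of probes higher and 4.58% lower among those well above background on at least 2 arrays. Over the 5 brighter arrays 1 gene did, Gnmt, with higher values at 20 mg, and 0 were lower, against 9.41% of probes higher and 7.41% lower among those well above background on all 5. In the count over 6 arrays, the overlap of Gnmt and that of Bhmt each rest on a 20 mg value not well above background. Mat1a lay at the floor throughout and could not count. In males the median dose difference of the 9 genes tested by their brightest probe was 0.28 on the log2 scale, beside -0.04 over all probes of the limma test. In females these medians were 0.12 and -0.21, which are descriptions with no test.

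**Figure D2:**
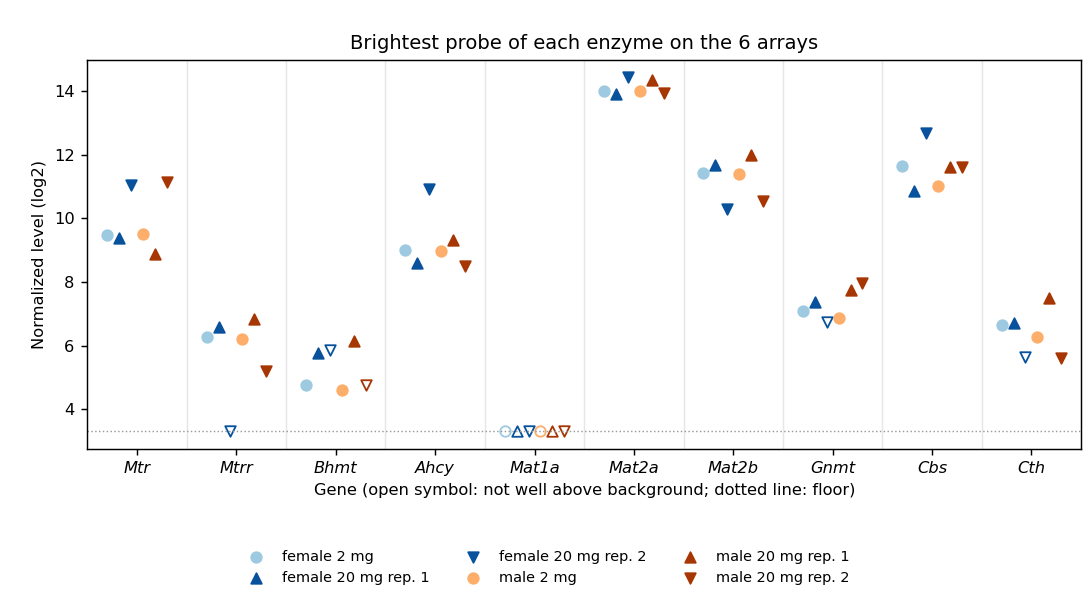
Normalized log2 level (vertical axis) of the brightest probe of each of the 10 genes on the 6 arrays, with circles for 2 mg, triangles for 20 mg, blue for females and orange to brown for males, and open symbols where the probe was not well above background. Levels of different genes come from different probes and are not to be set against each other; within a gene, the 20 mg triangles lie on both sides of the 2 mg circles for 8 genes or at the floor for Mat1a, and for Bhmt both circles and 1 open triangle lie close together.

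The 3 enzymes that remake methionine had no common direction. Mtr, methionine synthase, passes the methyl group of methyltetrahydrofolate to homocysteine on a cobalamin cofactor. Its probe 1 read 9.47 in the female 2 mg array, 9.39 and 11.05 in the female 20 mg arrays, 9.52 in the male 2 mg array and 8.87 and 11.15 in the male 20 mg arrays. The second 20 mg array of each sex was high and the first was below the 2 mg array of its sex. The dose difference was 0.50 in males (95% interval -2.38 to 3.38) and 0.75 in females (-2.13 to 3.63), both with a limma adjusted p of 1. Mtr probe 2, which lies close to it on chromosome 13 (chr13:12279165-12279224), ran the other way between the 20 mg arrays. It read 5.89 in the female 2 mg array, 6.34 and 4.66 in the female 20 mg arrays, 6.15 in the male 2 mg array, and 7.32 and 5.73 in the male 20 mg arrays, and was not well above background where it read 4.66. The array that was highest for probe 1 in a sex was thus the lowest for probe 2. The sequence of probe 1 opens with repeats of ggttt, and whether it reads other transcripts was not tested.

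Mtrr, methionine synthase reductase, returns the cobalamin of methionine synthase to its working state. It read 6.28 in the female 2 mg array, 6.58 and 3.32 in the female 20 mg arrays, 6.20 in the male 2 mg array and 6.84 and 5.21 in the male 20 mg arrays. The value of 3.32 is the floor, reached on female 20 mg replicate 2, and the probe was not well above background there. The female difference of -1.33, a fold of 2.52 lower at 20 mg, comes from this value, and its limma standard error was 2.08 with an adjusted p of 1. Female 20 mg replicate 1, on the same slide as the 2 mg array, was 0.30 above it. In males the difference was -0.18, with the 20 mg arrays on either side of the 2 mg array.

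Bhmt, betaine-homocysteine methyltransferase, makes methionine from homocysteine with betaine as the donor and is known as a liver and kidney enzyme. Probe 1 read 4.77 in the female 2 mg array and 5.77 and 5.85 in the female 20 mg arrays, and 4.61 in the male 2 mg array and 6.13 and 4.75 in the male 20 mg arrays. All 4 values at 20 mg were above the 2 mg value of their sex, and the male value of 4.75 was below the female 2 mg value, so the doses overlapped. The values of 5.85 and 4.75 were not well above background. The difference was 1.04 in females, a fold of 2.06, and 0.83 in males, with limma standard errors of 1.78 and an adjusted p of 1 in both sexes.

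The other probes of Bhmt did not follow probe 1. Probe 2 (chr13:94386856-94386915), placed close to probe 1 (chr13:94386981-94387040), read 4.48 at female 2 mg and 5.86 and 3.32 at female 20 mg, then 5.50 at male 2 mg and 5.69 and 3.43 at male 20 mg. The second array at 20 mg was the low one in either sex and neither of these was well above background. Probe 3 (chr13:94395097-94395156) lay between 4.27 and 5.51 on the 6 arrays, with 20 mg higher by 0.39 in males and lower by 0.17 in females (-0.17). Probe 4, whose letters stand above, was not well above background on any array and lay between 3.32 and 3.63. The mean over the 4 probes differed between doses by 0.11 in males and 0.25 in females.

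For liver, where Bhmt, Mat1a and Gnmt are known to be abundant, the check of marker genes gave mixed levels. Of the liver markers listed, Alb, Apoa1, Fgb and Cps1 were not well above background on any array, Serpina1a was so on 4, and Apoa2 and Tat were well above background on at least 5. The summed normalized signal of the 7 liver markers was 3534 to 4092 at 2 mg and 910.1 to 17090 at 20 mg with the lower of these on male 20 mg replicate 1 and the higher on male 20 mg replicate 2. Bhmt probe 1 was higher on the former of these arrays, 6.13 against 4.75, and Gnmt was lower there, 7.74 against 7.98. Apoa2 was the highest of the 7 liver markers on every array, so their summed signal mainly follows this gene and does not stand for the whole list. The part of liver transcripts in the Bhmt and Gnmt values was not tested.

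The makers of S-adenosylmethionine include the gene with the smallest standard error among the 9 tested by their brightest probe. This gene, Mat2a, which encodes the catalytic subunit of the methionine adenosyltransferase found outside the liver, read 13.98 at female 2 mg, 13.91 and 14.42 at female 20 mg, 14.01 at male 2 mg and 14.36 and 13.93 at male 20 mg on probe 1. In both sexes 1 array at 20 mg was above and the other below the 2 mg array. The dose difference was 0.13 in males (95% interval -1.75 to 2.01) and 0.18 in females (-1.70 to 2.06), and the adjusted p by limma was 1 in both. Its spread between the 20 mg arrays was 0.30 in males and 0.36 in females (SD, n = 2).

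Mat2a probe 2, which lies upstream on the minus strand (chr6:72385926-72385985 against chr6:72382856-72382915 for probe 1), was well above background on all 6 arrays too. It read 8.03 at female 2 mg, 8.74 and 9.01 at female 20 mg, and 8.73 to 8.83 on the 3 male arrays. The female 2 mg array was the lowest of the 6, and the male 2 mg array was 0.77 above it. Its dose difference was 0.84 in females and -0.03 in males, again with an adjusted p of 1.

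Mat2b, the regulatory subunit that partners the Mat2a product, read 11.43 at female 2 mg, 11.66 and 10.28 at female 20 mg, 11.40 at male 2 mg and 11.99 and 10.54 at male 20 mg. The first 20 mg array of each sex was above and the second below the 2 mg array. The differences were -0.46 in females and -0.14 in males, with limma standard errors of 1.14 and an adjusted p of 1. Mat1a, the catalytic subunit of the liver form, was not well above background on any of the 6 arrays. Its value was the floor of 3.32 on every array, so it gives no fold.

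Gnmt, glycine N-methyltransferase, spends S-adenosylmethionine on glycine and is known as a buffer of the methyl supply in liver. Its probe read 7.10 at female 2 mg, 7.38 and 6.74 at female 20 mg, 6.87 at male 2 mg and 7.74 and 7.98 at male 20 mg. The male 20 mg arrays were both above every other array, and the value of 6.74 belongs to female 20 mg replicate 2, on which the probe was not well above background. In males the difference was 0.99, a fold of 1.98 with an SD of 0.171 between the 20 mg arrays (n = 2), and it was larger than the gap between these arrays. The limma standard error, which is moderated toward the spread of all probes, was 2.06, the 95% interval was -3.30 to 5.28, and the adjusted p was 1. In females the difference was -0.04.

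Over the 5 brighter arrays, normalized without the dim array, Gnmt read 7.93 and 7.69 at 2 mg (female, male) and 8.24, 8.62 and 8.87 at 20 mg (female replicate 1, then the male arrays). The 3 values at 20 mg lay above both at 2 mg, with a difference of means of 0.77 on the log2 scale. Within slide 1 the 20 mg array was 0.40 above the mean of the 2 mg arrays. Gnmt was also without overlap over these 5 arrays under each of the 5 other ways of processing, the deposited value table included, with differences from 0.59 to 0.77. The share of probes higher without overlap, 9.41%, is the background for such a count under the reported processing, and no share was taken for the other ways. With female 20 mg replicate 2 kept in, the female difference was -1.34 with the floor set before normalization, where the fold rule called Gnmt lower, and -1.05 in the deposited value table, and the difference over both sexes was -0.22 and -0.12, against 0.48 as reported here.

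Ahcy, adenosylhomocysteinase, splits S-adenosylhomocysteine into homocysteine and adenosine. Probe 1 (chr2:154885047-154885106) read 8.99 at female 2 mg, 8.60 and 10.92 at female 20 mg, 8.96 at male 2 mg and 9.32 and 8.49 at male 20 mg. The dim array was the high one in females, and the male arrays at 20 mg lay on both sides of 2 mg. The differences were 0.77 in females and -0.06 in males with limma standard errors of 1.52 and an adjusted p of 1.

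The other Ahcy probes gave somewhat different orders. Probe 2 read 5.58 at female 2 mg, 5.41 and 6.71 at female 20 mg, 5.23 at male 2 mg and 5.79 and 5.60 at male 20 mg, with 6.71 not well above background. In males both 20 mg arrays were above 2 mg, by 0.56 and 0.37. Probe 3 read 4.06 at female 2 mg, 4.34 and 6.35 at female 20 mg, 4.43 at male 2 mg and 5.0 and 5.16 at male 20 mg, and was well above background on 3 of the 6 arrays, namely female 20 mg replicate 1, male 2 mg and male 20 mg replicate 2. The female 2 mg array and the dim array did not measure it, so no fold is given for probe 3 in females, and its adjusted p by limma was 1.

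In transsulfuration, the male 20 mg arrays were nearly equal for Cbs and far apart for Cth, on either side of the male 2 mg array. Cbs, cystathionine beta-synthase, joins homocysteine to serine and commits it to cysteine. It read 11.65 at female 2 mg, 10.86 and 12.67 at female 20 mg, 11.02 at male 2 mg and 11.60 and 11.60 at male 20 mg. The SD of the male 20 mg arrays was 0.0018 (n = 2), and both were above the male 2 mg array and below the female one. The difference was 0.58 in males, a fold of 1.50 (95% interval -1.69 to 2.86), and 0.12 in females (-2.15 to 2.39), with a limma adjusted p of 1 in both sexes. The 2 mg arrays themselves, both on slide 1, differed by 0.63. This was the widest gap among the brightest probes of the 9 genes above background on at least 2 arrays. Within slide 1 the 20 mg array was lower than the mean of the 2 mg arrays by 0.47 (-0.47).

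Cth, cystathionine gamma-lyase, releases cysteine from cystathionine. Probe 1 read 6.64 at female 2 mg, 6.72 and 5.64 at female 20 mg, 6.27 at male 2 mg and 7.48 and 5.62 at male 20 mg. The arrays at 20 mg lay on both sides of 2 mg in each sex. The difference was 0.28 in males and -0.46 in females, with standard errors of 2.18 and a limma adjusted p of 1. Probe 2 (chr3:157557667-157557726) read 6.81 at female 2 mg, 6.94 and 3.32 at female 20 mg, 7.74 at male 2 mg and 7.37 and 5.59 at male 20 mg. In males both 20 mg arrays were below 2 mg, and in females the floor value on the dim array set the difference of -1.68, a fold of 3.19. The male difference of -1.27 was opposite in sign to that of probe 1, and the adjusted p of probe 2 was 1 in both sexes.

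**Figure D3:**
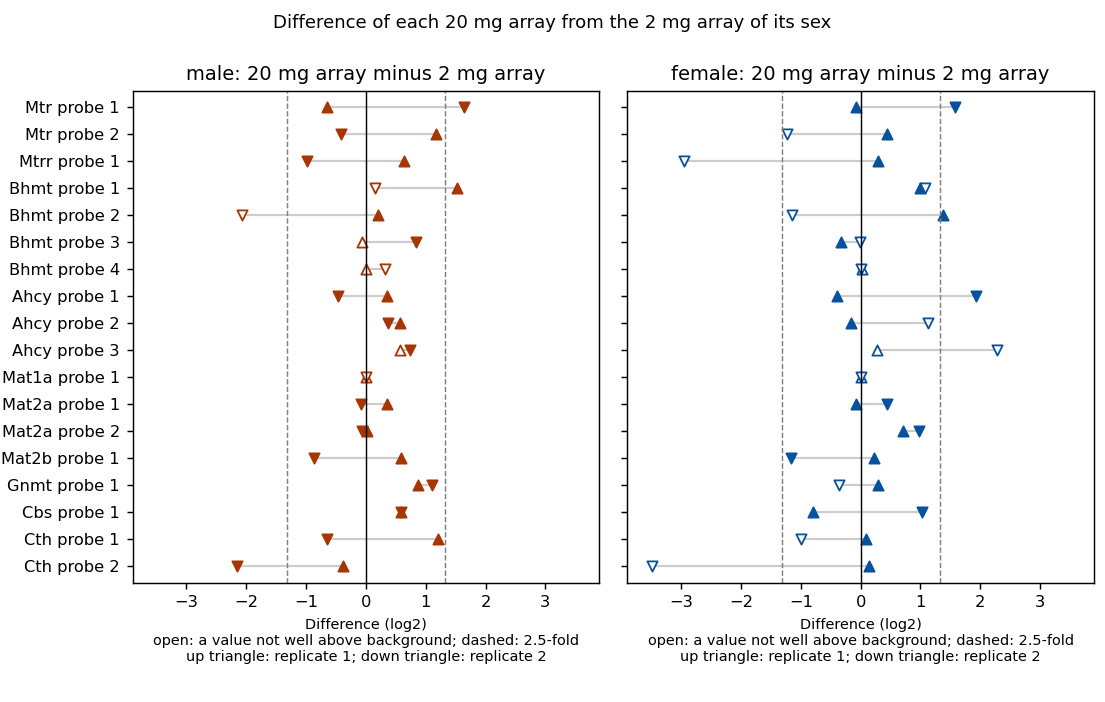
Difference on the log2 scale (horizontal axis) of each 20 mg array from the 2 mg array of its sex, for all 18 probes (rows) in males (left) and females (right), with the arrays of a row joined by a line and open symbols where a value was not well above background. In males both Gnmt values, 0.87 and 1.11, lie on the same side, and in females the values farthest to the left, -3.49 for Cth probe 2 and -2.96 for Mtrr, are open.

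Gene by gene, the 20 mg arrays of a sex were set against its 2 mg array where the brightest probe was well above background on all 3. Of 8 such genes in males, 2 had both 20 mg arrays above (Gnmt and Cbs), 0 had both below and 6 had them on opposite sides, against 23.4%, 24% and 52.7% of the 25810 probes measured in the same way. Of 5 such genes in females, 0 had both above, 0 had both below and 5 had them on opposite sides, against 30.8%, 17.9% and 51.3% of 12721 probes. The dose difference was larger than the gap between the 20 mg arrays for 2 of the 8 in males (Gnmt and Cbs) and 0 of the 5 in females, against 27.2% and 20.3% of these probes. With values below background included, the median absolute gap of the 9 tested genes between the 20 mg arrays was 1.38 in males and 1.39 in females, against 1.03 and 1.46 over all probes, and the 2 mg arrays of the sexes differed by a median of 0.0841, against 0.217 over all probes.

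**Figure D4:**
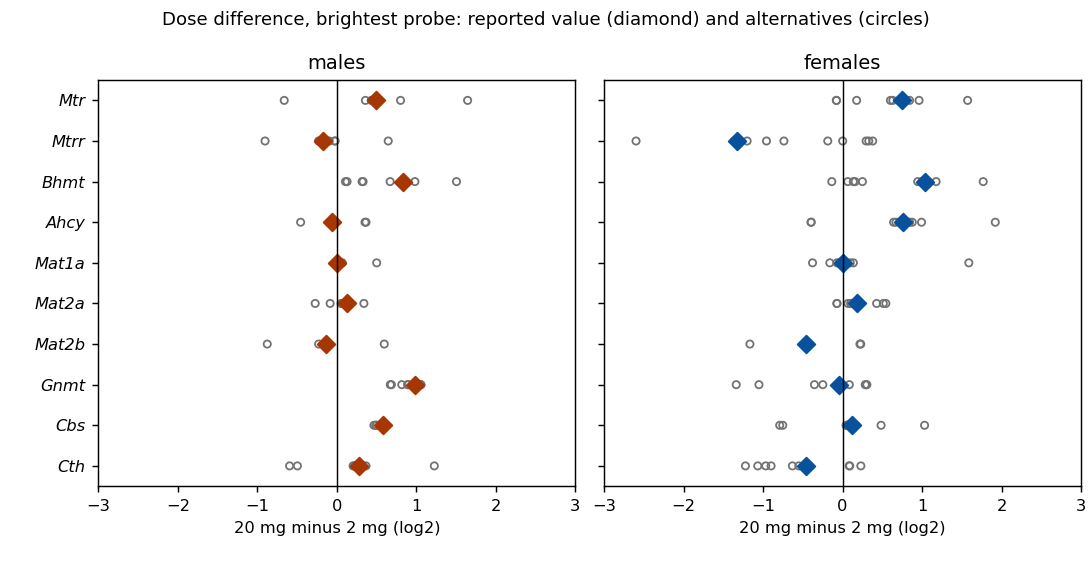
Dose difference of the brightest probe (horizontal axis, log2) for each of the 10 genes in males (left) and females (right), with a diamond for the reported value and circles for alternative processing or arrays left out. The circles of Gnmt (0.67 to 1.06), Cbs (0.47 to 0.59) and Bhmt (0.11 to 1.51) in males stay right of 0, and those of Mtrr in females run from -2.60 to 0.38. For Gnmt, Cbs and Bhmt both male 20 mg arrays lay above the male 2 mg array, so leaving out a 20 mg array leaves the sign nearly fixed. The male 2 mg array could not be left out in males.

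Genes around the cycle were read over the 5 brighter arrays. Of the 44 neighbours in 6 lists, 43 had a probe and 39 were well above background on all 5 arrays. Without overlap 4 were lower and 2 higher at 20 mg, against the 7.41% and 9.41% of all probes, and limma called 0 of the 42 it tested in any contrast. By the fold rule 0 passed in males in either direction, and in females 5 were lower (Mtap, Gclm, Sardh, Ahcyl1 and Hnmt) and 2 higher (Bhmt2 and Dmgdh), beside 10.3% and 8.65% of all probes. On female 20 mg replicate 2 each of the 7 was below 8.82 and not well above background, Bhmt2 was not well above background on any array, and female 20 mg replicate 1 was above the female 2 mg array for Gclm, Sardh and Ahcyl1. The median difference over 5 arrays was -0.35 for the 5 genes of methionine salvage, -0.18 for the 3 of polyamine synthesis, 0.00091 for the 10 of cysteine, glutathione, taurine and sulfide, -0.04 for the 6 of cobalamin supply, 0.39 for the 8 of the betaine and folate routes and 0.08 for the 11 that use S-adenosylmethionine or clear S-adenosylhomocysteine, beside -0.0048 over all probes well above background on these arrays. Of the 8 betaine and folate genes only 4 were well above background on all 5 arrays, so their median also holds dim values.

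The 2 genes that lay higher at 20 mg without overlap were Shmt2 and Mthfd1, of the list that also holds Aldh7a1, which was lower. Shmt2, the mitochondrial serine hydroxymethyltransferase that loads carbon onto folate, read 10.11 and 10.23 at 2 mg and 10.24, 11.23 and 10.56 at 20 mg. Mthfd1, which interconverts the folate carbon forms, read 11.09 and 11.12 at 2 mg against 11.46, 11.93 and 11.25. On female 20 mg replicate 2, in the normalization over 6 arrays, Mthfd1 read 9.45 and was below both 2 mg arrays, and Shmt2 was not well above background.

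The 4 that lay lower belong to 4 lists. Aldh7a1, a dehydrogenase that can make betaine from betaine aldehyde, read 12.86 and 12.99 at 2 mg against 12.01, 12.63 and 12.26. Enoph1 of methionine salvage read 13.14 and 13.13 against 12.64, 13.04 and 12.14. Mmachc, which processes incoming cobalamin, read 10.12 and 10.02 against 9.74, 9.67 and 9.28. Mpst, which moves sulfur from mercaptopyruvate and can yield sulfide, read 12.43 and 12.50 against 11.97, 12.14 and 11.90. On female 20 mg replicate 2, which these values leave out, all 4 were above both 2 mg arrays in the normalization over 6 arrays, at 13.29 for Aldh7a1, 12.52 for Enoph1, 10.07 for Mmachc and 13.83 for Mpst.

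**Figure D5:**
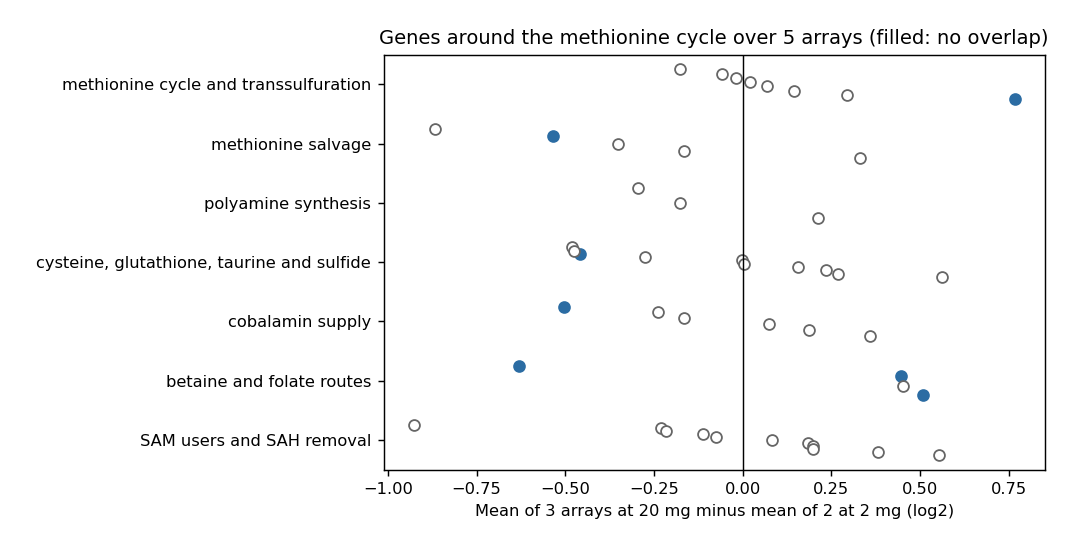
Difference between the mean of the 3 arrays at 20 mg and the mean of the 2 at 2 mg over the 5 brighter arrays (horizontal axis, log2) for genes of the cycle and of 6 neighbouring lists (rows) that were well above background on all 5, with filled circles where the doses did not overlap. Gnmt at 0.77 is the filled circle of the cycle, and the filled circles of the other lists lie between -0.63 and 0.51.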

How the data were processed

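RNA of the cerebellum was measured on 6 single-colour arrays. The scanner files, per the file headers, were written by Agilent Feature Extraction 10.7.3.1 with positions on the mouse build mm9. The deposited intensities are processed signals, made by the authors' software by subtracting background and correcting the trend over the slide, without scaling between arrays. A value table, which the authors deposited as log2 values after quantile normalization with a floor, as the methods describe, serves as an alternative. Over probes above 100 in processed signal the table's columns had slopes of 0.736 to 1.08 on the log2 signals of the same arrays, which gives the log2 scale, and their medians were 6.49 on 5 arrays and 5.23 on female 20 mg replicate 2.

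From the intensities, outlier spots were dropped and the remaining spots averaged by probe. Quantile normalization of the log2 values over the 6 arrays followed, and linear values under 10 were set to 10. The fold rule follows the study's order of filters. The methods give the cut-offs for log intensity variation (p of 0.05, no more than 50% missing) but not the formula, which was taken here as a chi-square test of a probe's variance against the median variance, before 2.5-fold was required. The test with replicate error was limma 3.58.1 in R 4.3.3 with a trend, 4 groups of sex and dose, and Benjamini-Hochberg adjustment over 37211 probes. These are the probes with a value on every array among the 37252 well above background on at least 2 arrays. The steps were run on simulated data with less noise than these arrays and with large changes. That run does not show how they perform at the spread seen here.

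The enzymes, neighbouring genes and marker lists were chosen with earlier results of these data known. All 10 enzymes are named by their brightest probe over the 6 arrays. Neighbours are named where the 2 mg and 20 mg arrays do not overlap over the 5 arrays other than female 20 mg replicate 2 and all 5 are well above background, up to 8 by size. A neighbouring gene of the planned lists is not reported here. In all, 0 columns of samples outside the study were used. Alternatives covered scaling, background correction, filters, the deposited value table, slide, probe choice and each array left out. The number of arrays, 1 at 2 mg in each sex, limits the precision of every value. An annotation of mm9 was not used here, so exons and untranslated parts are not stated for probes.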

Additional observations from a re-analysis of the deposited data

How the results depend on the processing

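The count of enzyme probes called by limma was 0 under every alternative that could be run, in males, in females, over both sexes and for the interaction, and the smallest adjusted p of an enzyme probe was 1 throughout in males and ran from 0.55 to 1 in females, 0.756 to 1 over both sexes and 0.957 to 1 for the interaction. The fold rule was less stable. In females its 2 enzyme probes became 1 (Gnmt, lower at 20 mg) with the floor set before quantile normalization, and 0 with the 75th percentile shift, with normexp at an offset of 50, with the mean signal and with the deposited value table. In males its 0 became 1 (Cth probe 2) at a threshold of 2-fold. Leaving out each array in turn gave 0 to 2 probes in males and 1 to 2 in females, with 2 in males (Bhmt probe 2 and Cth probe 2) without male 20 mg replicate 1, 1 in males without female 20 mg replicate 2, and 1 in females without female 20 mg replicate 2 or without the male 2 mg array. The female difference of Mtrr ran from -2.60 to 0.33 with an array left out and turned to 0.38 with the 75th percentile shift, 0.0016 with normexp, 0.33 without female 20 mg replicate 2 and 0.30 within slide 1.

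Genes without overlap between doses numbered 2 (Bhmt and Gnmt) with the 75th percentile shift and 1 (Mtr, by 0.31) for the mean over the probes of a gene, in place of 0, and 0 to 1 when an array was left out, with Bhmt as the 1 without the female 2 mg array or male 20 mg replicate 2 and Gnmt without female 20 mg replicate 2. Over the 5 brighter arrays, an alternative chosen after seeing the data, the count of 1 became 3 (Bhmt, Gnmt and Mat2a, the last lower at 20 mg) with the 75th percentile shift, 2 (Bhmt and Gnmt) with normexp and 2 with the deposited value table. The share of all probes without overlap was taken under the reported processing only, so these counts have no background of their own. Bhmt was not well above background on all 5 brighter arrays and lies outside the probes behind the share for those arrays. The medians over the enzymes here take all 10 genes, Mat1a included, and the reported processing gave 0.06 in females and 0.20 in males. The female median became 0.51 with the 75th percentile shift and -0.17 with the deposited value table. Under that shift Mat1a, not well above background on any array, had a female difference of 1.59. The female median over all probes of the limma test went from -0.209 to 0.45 under it. With an array left out, the female median of the enzymes ran from 0.0098 to 0.21 and the male median from -0.04 to 0.59. The 75th percentile shift also moved the share of higher calls among all fold calls from 45.6% to 83% in females and from 39.5% to 60.8% in males. The cause of these changes was not tested.

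No paired analysis was possible because each 2 mg group has 1 array and no shared number ties it to an array at 20 mg. Slide as a random block could not be fitted with 4 groups. An additive model of sex and dose with that block, added after seeing the data, had a correlation of 0.187 within slides and called 0 enzyme probes. Slide as a fixed block called 0 as well but turned the difference over both sexes for 7 of 9 genes, from 0.62 to -0.63 for Mtr, -0.75 to 1.2 for Mtrr, 0.36 to -0.79 for Ahcy, 0.16 to -0.09 for Mat2a, -0.30 to 0.66 for Mat2b, 0.35 to -0.90 for Cbs and -0.09 to 0.64 for Cth. Without a 2 mg array there is no dose contrast in its sex, so a mean over both sexes was not run there. With 2 residual degrees of freedom and a prior SD of 1.32 on the log2 scale, the number of arrays limits the precision.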
